A study of Mus musculus with 11 samples.

Results

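Immediate early genes are a set of 10 genes here, Fos, Fosb, Jun, Junb, Egr1, Atf3, Ier2, Dusp1, Nr4a1 and Zfp36. They were found among the 22608 genes of the heart table by matching each Ensembl identifier, without its version, to these symbols in the GENCODE mouse annotation, and all 10 were present. Hearts, labelled as ventricle, came from 11 male mice aged 8 to 16 weeks on a C57BL/6J background. Vehicle was injected into 2 WT mice (group WT VEH) and into 3 CD mice (group CD VEH), and JZL184 into 3 mice of either genotype (groups WT JZL184 and CD JZL184). JZL184, an inhibitor of the enzyme that breaks down the endocannabinoid 2-AG, was given at 8 mg/kg for 10 days, and the vehicle held dimethyl sulfoxide, polyethylene glycol, Tween-80 and saline. CD mice (strain WBS-CD in the labels) lack 1 copy of the interval that models Williams-Beuren syndrome in every cell, and the WT mice (strain C57BL/6 in the labels) were their littermates. Vehicle is taken from the sample titles and the methods, since the labels also describe these controls as untreated. The methods describe cardiac tissue that was taken and frozen directly after a test of social behaviour, with the drug injected before the test, but do not say whether the sequenced hearts were among it. Their own time since the last injection and the duration of collection are not given in the sources used here.

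Immediate early genes are switched on within minutes of a stimulus, from transcription factors such as SRF with its ELK partners and CREB that already sit on their promoters, so no new protein is needed first. Many of their mRNAs are short-lived, because AU-rich stretches in the 3' end recruit decay factors, and their level falls again soon after the stimulus ends. In the heart they answer stretch, adrenergic drive, ischaemia and hormones, and in any tissue they also answer handling, injection and the interval between death and freezing. Fos, Fosb, Jun and Junb encode subunits of the AP-1 factor, Atf3 a stress factor of the ATF family, Egr1 a zinc finger factor, Nr4a1 an orphan nuclear receptor and Ier2 a small nuclear protein. Dusp1 and Zfp36 encode brakes on the response, a phosphatase of MAP kinases and a protein that marks AU-rich mRNAs for decay.

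Levels are given as CPM, the read count of a gene scaled to library size, with TMM factors over the 11319 genes tested. The libraries held between 69660329 and 92251550 counts per mouse, at which 3 counts are 0.0306 to 0.0435 CPM, for counting error only. Letters name the mice as the table does, and each was taken as a separate animal. Genes of the mitochondrial genome took 39.4% and 41.2% of the counts in WT VEH, 45.0% to 46.6% in WT JZL184, 43.5% to 44.7% in CD VEH and 36.4% to 40.1% in CD JZL184. The 7 cardiomyocyte markers (Myh6, Actn2, Tnnt2, Myl2, Myl3, Ryr2 and Mybpc3) together reached 26100 to 36700 CPM. This sum does not by itself tell ventricle from atrium. The 4 atrial markers Myl7, Sln, Myl4 and Nppa summed to between 50.5 and 221 CPM, and Sln was at 0 counts in 5 mice.

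Most of the genes were compact, with exceptions. In GENCODE, their median span was 4.70 kb, beside 25.4 kb over 11226 tested protein-coding genes, and the transcript used for each gene had a median of 3 exons beside 9. The GENCODE models of Dusp1 (56.5 kb) and Atf3 (47.7 kb) spanned more than the median of tested genes, and Nr4a1 spanned 20.5 kb with 8 exons. The starts of Dusp1 and Atf3 in RefSeq, a second annotation, lie inside these models, so their spans from those starts are shorter. Jun, Junb and Ier2 had a single exon, as did 2.03% of tested protein-coding genes, and 9 of the 10 genes had at most 4 exons, as did 20.1%. The pentamer ATTTA, the core of AU-rich elements, occurred a median of 3.56 times per kb of 3' UTR, beside 1.33 over tested genes. Dusp1 held 4 copies (5.80 per kb), Fos 4 (4.91 per kb), Nr4a1 3 (5.53 per kb) and Ier2 none in 755 bases.

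On GRCm38, the gene models were Fos at chr12:85473890-85477273 (+), Fosb at chr7:19302696-19310051 (-), Jun at chr4:95049034-95052222 (-), Junb at chr8:84974484-84978718 (-), Egr1 at chr18:34859823-34864984 (+), Atf3 at chr1:191170296-191218039 (-), Ier2 at chr8:84661331-84662852 (-), Dusp1 at chr17:26505590-26562128 (-), Nr4a1 at chr15:101254269-101274795 (+) and Zfp36 at chr7:28376784-28380253 (-). Jun (Junos), Junb (Prdx2), Atf3 (Gm24748), Dusp1 (Ergic1 and Gm8225) and Zfp36 (Gm44710) overlap genes of the opposite strand, and Dusp1 also spans AC122252.1 and AC122252.4 on its own strand. These are overlaps of the full GENCODE models, which for Dusp1 and Atf3 extend upstream of the RefSeq start. The strand setting of the quantification is not given in the sources used here, so reads of overlapping genes may not be fully separated.

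RefSeq promoters on GRCm38.p6 matched 8 of the 10 genes, all but Ier2 and Egr1, and the 250 bases before each start were searched on both strands for regulatory motifs. The half-site of the cAMP response element, TGACG, occurred in 6 of the 8 (Fos, Fosb, Junb, Atf3, Dusp1 and Nr4a1), beside 17.8% of all 32851 promoter windows of that length. Nr4a1 held 4 copies. The full element TGACGTCA, which contains the half-site on either strand, occurred in Dusp1 alone and in 1.55% of all windows. The AP-1 site TGANTCA was in none of the 8 (6.75% of all windows). A CArG box, the site of SRF, was found in Zfp36 alone (1.47%), and the EGR site GCGNGGGCG, which can overlap the GC box, in Fosb, Nr4a1 and Zfp36 (4.70%). The GC box GGGCGG was found in 7 of the 8, all but Junb (32.7%), CCAAT in Jun and Junb (33.8%) and TATAAA in Fos (12.4%). A match describes the letters of the window and not a bound site. Bases outside the 250 and variants of these letters were not searched. A window without a match may therefore belong to a gene with such a site elsewhere. The windows of Jun, Junb, Atf3 and Dusp1 are shown because these genes, of those with an entry, passed the test in at least 1 comparison below. Capitals mark the TGACG half-site, on either strand, and the full element.

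The windows, written 5' to 3' along the gene, lie on the minus strand at chr4:95052223-95052472 (Jun), chr8:84978749-84978998 (Junb), chr1:191183334-191183583 (Atf3) and chr17:26508473-26508722 (Dusp1).
Jun: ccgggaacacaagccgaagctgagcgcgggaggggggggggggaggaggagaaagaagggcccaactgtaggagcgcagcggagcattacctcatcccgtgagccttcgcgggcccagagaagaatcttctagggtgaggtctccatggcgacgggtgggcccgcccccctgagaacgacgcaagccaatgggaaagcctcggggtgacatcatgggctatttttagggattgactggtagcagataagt
Junb: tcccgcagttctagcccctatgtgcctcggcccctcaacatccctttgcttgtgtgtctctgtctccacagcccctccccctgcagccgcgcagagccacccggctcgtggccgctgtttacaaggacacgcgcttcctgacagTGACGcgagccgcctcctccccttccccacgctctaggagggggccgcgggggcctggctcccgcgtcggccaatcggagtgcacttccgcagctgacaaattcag
Atf3: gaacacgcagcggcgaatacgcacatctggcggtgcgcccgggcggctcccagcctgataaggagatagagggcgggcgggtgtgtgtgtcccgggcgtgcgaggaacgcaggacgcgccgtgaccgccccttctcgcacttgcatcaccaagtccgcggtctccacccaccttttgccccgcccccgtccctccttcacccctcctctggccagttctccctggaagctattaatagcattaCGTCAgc
Dusp1: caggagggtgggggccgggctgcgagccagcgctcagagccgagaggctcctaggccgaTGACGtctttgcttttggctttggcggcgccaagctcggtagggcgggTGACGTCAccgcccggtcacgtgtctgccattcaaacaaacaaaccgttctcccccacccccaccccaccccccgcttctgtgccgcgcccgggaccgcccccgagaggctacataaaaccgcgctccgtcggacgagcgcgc

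In Dusp1 the full element runs from base -143 to base -136 relative to the start, between 2 GC boxes, with a second half-site from base -191. The half-site of Junb begins at base -106 and that of Atf3 at base -7, read on the other strand. The window of Jun holds neither TGACG nor TGACGTCA on either strand. It does hold TGACATCA, a near match of the full element, and near matches were not searched.

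Per kb of exon, a scale on which genes can be compared, Dusp1 and Jun stood highest over the 11 mice, at 15.9 ± 2.65 and 15.7 ± 3.06 CPM per kb (mean ± SD, n = 11). Nr4a1 followed at 7.30 ± 4.02, Ier2 at 6.73 ± 2.05, Zfp36 at 5.57 ± 0.978, Junb at 4.73 ± 1.64, Atf3 at 3.89 ± 0.967, Egr1 at 3.36 ± 1.47 and Fos at 2.99 ± 1.47 CPM per kb. Fosb was far below the others, at 0.0953 ± 0.0370 CPM per kb. Neighbours in this order overlapped between mice, apart from Fosb, which was below every other gene. Dusp1 and Jun were above Ier2, Zfp36, Junb, Atf3, Egr1 and Fos in every mouse, but their range met that of Nr4a1.

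**Figure D1:**
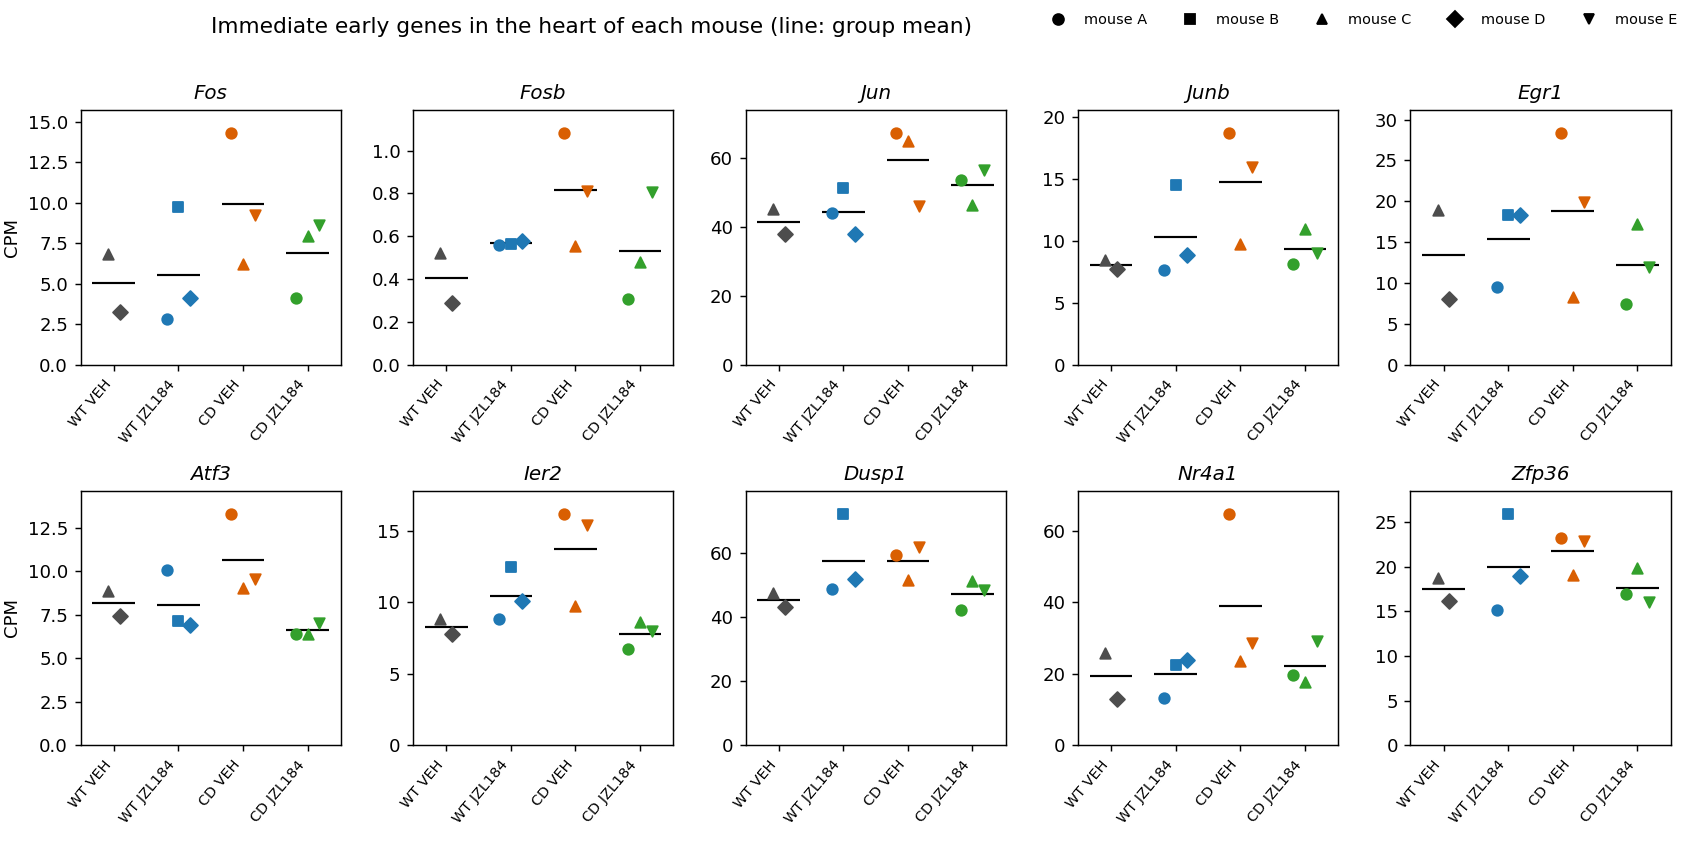
CPM (y axis, from 0, a scale of its own in each panel) of the 10 immediate early genes in each mouse, by group (x axis). Symbols name the mouse letter and lines the group means. CD VEH mouse A is the highest point in 8 of the 10 panels, and WT JZL184 mouse B in those of Dusp1 and Zfp36.

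The AP-1 subunits came first. Fos was at 6.87 and 3.24 CPM in WT VEH mice C and D, at 2.83, 9.74 and 4.13 CPM in WT JZL184 mice A, B and D, at 14.3, 6.20 and 9.25 CPM in CD VEH mice A, C and E, and at 4.10, 7.98 and 8.65 CPM in CD JZL184 mice A, C and E. The groups overlapped, and the highest mouse exceeded the lowest by 5.07-fold. Fosb, its close relative, was at 0.521 and 0.286 CPM in WT VEH, at 0.560, 0.563 and 0.577 CPM in WT JZL184, at 1.08, 0.552 and 0.810 CPM in CD VEH, and at 0.304, 0.479 and 0.804 CPM in CD JZL184. CD VEH mouse A was again the highest and WT VEH mouse D the lowest. These are 23 to 90 counts, below the minimum average log2 CPM of 1, so Fosb was not tested.

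Jun was at 45.1 and 37.8 CPM in WT VEH, 44.0, 51.1 and 37.7 CPM in WT JZL184, 67.0, 64.7 and 45.9 CPM in CD VEH, and 53.4, 46.2 and 56.4 CPM in CD JZL184. All CD VEH mice stood above both WT VEH mice, the nearest pair 45.9 against 45.1 CPM. Junb was at 8.44 and 7.72 CPM in WT VEH, 7.68, 14.5 and 8.83 CPM in WT JZL184, 18.7, 9.72 and 16 CPM in CD VEH, and 8.14, 11 and 9.02 CPM in CD JZL184. CD VEH mice were again all above WT VEH, with mouse C of CD VEH well below mice A and E.

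The other transcription factors differed in how far they varied, with 3.84-fold between the highest and lowest mouse for Egr1, 5.04-fold for Nr4a1 and 2.07-fold for Atf3. Egr1 was at 18.9 and 8.01 CPM in WT VEH, 9.44, 18.3 and 18.3 CPM in WT JZL184, 28.3, 8.25 and 19.9 CPM in CD VEH, and 7.36, 17.2 and 11.9 CPM in CD JZL184. Each group of Egr1 held a mouse below 10 CPM and a mouse above 17 CPM, and all groups overlapped. Nr4a1 was at 25.8 and 12.9 CPM in WT VEH, 13.1, 22.6 and 23.8 CPM in WT JZL184, 64.8, 23.5 and 28.7 CPM in CD VEH, and 19.6, 17.7 and 29.1 CPM in CD JZL184. A single mouse, CD VEH A, was more than 2-fold above all others for Nr4a1.

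Atf3 was at 8.89 and 7.41 CPM in WT VEH, 10.1, 7.16 and 6.93 CPM in WT JZL184, 13.3, 9.04 and 9.53 CPM in CD VEH, and 6.42, 6.41 and 7.01 CPM in CD JZL184. The 3 CD JZL184 mice lay within 0.6 CPM of each other, below every CD VEH and every WT VEH mouse. Ier2 was at 8.81 and 7.76 CPM in WT VEH, 8.84, 12.5 and 10.1 CPM in WT JZL184, 16.2, 9.73 and 15.4 CPM in CD VEH, and 6.74, 8.64 and 8.01 CPM in CD JZL184. Its CD JZL184 mice were all below its CD VEH mice and its WT JZL184 mice.

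Both brakes of the response had the narrowest ranges. Dusp1 was at 47.6 and 43.1 CPM in WT VEH, 48.7, 72.2 and 51.9 CPM in WT JZL184, 59.3, 51.7 and 61.8 CPM in CD VEH, and 42.2, 51.4 and 48.3 CPM in CD JZL184. WT VEH lay below both WT JZL184 and CD VEH. Zfp36 was at 18.7 and 16.2 CPM in WT VEH, 15.1, 25.9 and 19.0 CPM in WT JZL184, 23.2, 19.1 and 22.9 CPM in CD VEH, and 16.9, 19.8 and 16 CPM in CD JZL184. The highest Zfp36 mouse was 1.72-fold above the lowest, and for Dusp1 the ratio was 1.71.

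The group mean was highest in CD VEH for 9 of the 10 genes, all but Dusp1, whose mean was highest in WT JZL184. It was lowest in WT VEH for 7 genes and in CD JZL184 for Egr1, Atf3 and Ier2. These ranks take no account of the spread within groups.

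Whether the deletion was accompanied by a different level of immediate early genes was read from CD VEH against WT VEH. In edgeR's quasi-likelihood test, with adjustment over all tested genes, 3 of the 9 tested genes were higher in CD VEH and none was lower. Ier2 rose by 0.74 ± 0.20 (log2 fold-change ± SE, adjusted p = 0.0207), Junb by 0.87 ± 0.29 (adjusted p = 0.0386) and Jun by 0.51 ± 0.17 (adjusted p = 0.0367). Of all tested genes, 15.0% were called higher. The groups did not overlap for 6 of the 9 (Jun, Junb, Atf3, Ier2, Dusp1 and Zfp36, all higher in CD VEH), as for 32.5% of tested genes. The largest estimate was that of Nr4a1, at 1.01 ± 0.44 (adjusted p = 0.0947), followed by Fos at 0.98 ± 0.52 (adjusted p = 0.167), and neither passed the test. Atf3 was at 0.38 ± 0.19 (adjusted p = 0.134), Dusp1 at 0.35 ± 0.15 (adjusted p = 0.0985), Zfp36 at 0.31 ± 0.18 (adjusted p = 0.207) and Egr1 at 0.49 ± 0.51 (adjusted p = 0.474). All 9 estimates were above 0, with a median of 0.51 beside 0.01 over all tested genes.

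The 3 calls rested on single mice. Without CD VEH mouse A none of the 9 genes passed, nor did any without WT VEH mouse C or without mouse D, and without CD VEH mouse E only Jun passed. Jun did not pass without CD VEH mouse C, nor Junb without CD JZL184 mouse E. With each of the 11 mice left out in turn, the estimates were at least 0.60 for Ier2, 0.67 for Junb and 0.39 for Jun. Without CD VEH mouse A the estimate of Nr4a1 was 0.43. An offset for a trend on gene length also left none of the 9 called, with adjusted p = 0.0570 for Ier2. CD VEH mouse A differed in other ways too, since its 5 erythroid markers (Hba-a1, Hba-a2, Hbb-bs, Hbb-bt and Alas2) summed to 18800 CPM, beside 1420 to 5510 CPM in the other 10 mice. The part of blood in its immediate early genes was not tested.

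**Figure D2:**
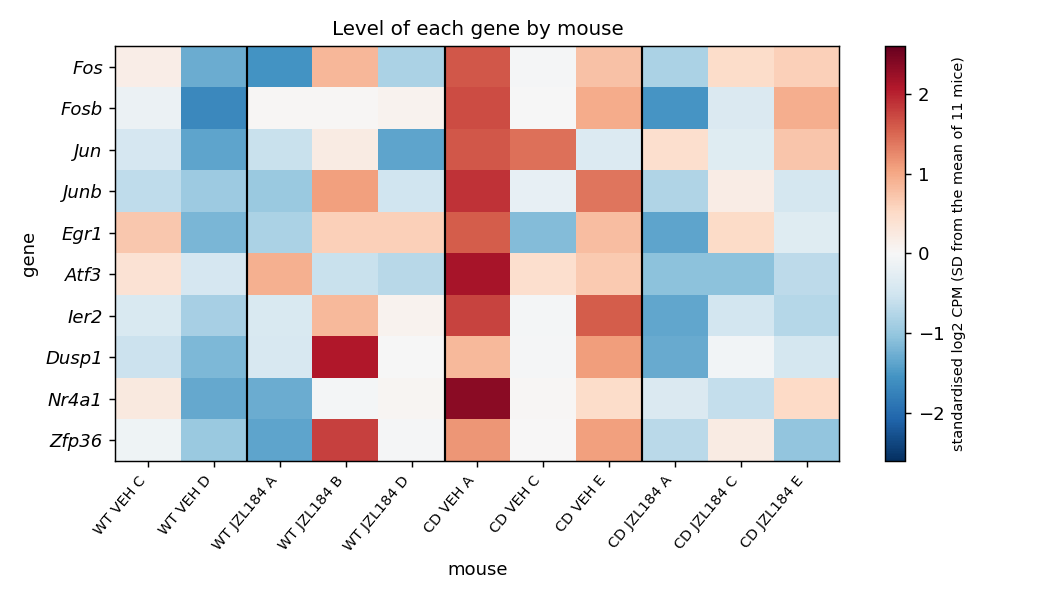
Level of each gene (y axis) in each mouse (x axis), as log2 CPM standardised to the mean and SD of the 11 mice (colour scale). Vertical lines separate the groups. CD VEH mice A and E carry most of the high values, and WT VEH mouse D and CD JZL184 mouse A most of the low ones.

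Whether JZL184 was accompanied by a change in CD hearts was read from CD JZL184 against CD VEH. In edgeR's test, 2 of the 9 genes fell and none rose. Ier2 fell by 0.82 ± 0.18 on the log2 scale (95% interval -1.21 to -0.43, adjusted p = 0.00667) and Atf3 fell by 0.68 ± 0.17 (95% interval -1.04 to -0.32, adjusted p = 0.0102). Among all tested genes, 17.0% were called lower. The groups did not overlap for Atf3, Ier2 and Dusp1, all lower in CD JZL184, as for 27.3% of tested genes. Both calls were kept when each of the 11 mice was left out in turn, with adjusted p between 0.000969 and 0.0327 for Ier2 and between 0.00416 and 0.0452 for Atf3. The smallest falls came without CD VEH mouse A, at -0.68 for Ier2 and -0.48 for Atf3. Without that mouse, 3 genes that did not pass also moved, Nr4a1 from -0.82 to -0.23, Egr1 from -0.63 to -0.20 and Fos from -0.52 to -0.15.

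The other 7 genes were also lower in CD JZL184 but did not pass. Junb was at -0.66 ± 0.25 (adjusted p = 0.0588), Nr4a1 at -0.82 ± 0.38 (adjusted p = 0.111), Dusp1 at -0.28 ± 0.13 (adjusted p = 0.116), Zfp36 at -0.30 ± 0.16 (adjusted p = 0.162), Egr1 at -0.63 ± 0.45 (adjusted p = 0.291), Jun at -0.19 ± 0.15 (adjusted p = 0.335) and Fos at -0.52 ± 0.45 (adjusted p = 0.378). Their median with both called genes was -0.63, beside 0.00 over all tested genes. This comparison shares the CD VEH mice with the one of the genotypes, so that a high CD VEH mouse moves both, in opposite directions. For Ier2 the estimates were 0.74 and -0.82, for Atf3 0.38 and -0.68, and for Jun 0.51 and -0.19.

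In WT mice, none of the 9 genes passed between JZL184 and vehicle, where 29.4% of tested genes were called in either direction. At an unadjusted p under 0.05, 1 gene passed, Dusp1 (0.35 ± 0.15, adjusted p in edgeR = 0.102), as did 4829 of the 11319 tested genes. DESeq2 called none of the 9 and 3760 genes in all. The groups did not overlap for Ier2 and Dusp1, both higher in WT JZL184, as for 27.4% of tested genes. Estimates lay between -0.01 for Atf3, whose sign turned with upper quartile scaling (0.03), and 0.35 for Junb and Dusp1. The intervals were wide for the variable genes, from -1 to 1.28 for Fos and from -0.89 to 0.97 for Nr4a1. They were narrower for Atf3, from -0.42 to 0.39, and for Jun, from -0.27 to 0.45.

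Among mice given JZL184, CD against WT, no immediate early gene passed, whereas 38.3% of tested genes were called in either direction. Ier2 came nearest at -0.42 ± 0.18 (adjusted p = 0.0840), with CD JZL184 below WT JZL184 in every mouse, as for 24.3% of tested genes. The highest estimate was that of Fos, at 0.32 ± 0.46 (adjusted p = 0.598). DESeq2 called Ier2 alone of the 9, and 4686 genes in all. In edgeR, 1 of the 9 passed an unadjusted p under 0.05, as did 5505 of the 11319 tested genes. Against WT VEH, the CD JZL184 mice differed for none of the 9 genes in either tool, and none had an unadjusted p under 0.05, in a comparison in which 0.186% of tested genes were called. Estimates ran from -0.30 ± 0.19 for Atf3 to 0.46 ± 0.52 for Fos. All CD JZL184 mice were above WT VEH for Jun, as for 17.7% of tested genes. They were all below it for Atf3, as for 18.9%.

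**Figure D3:**
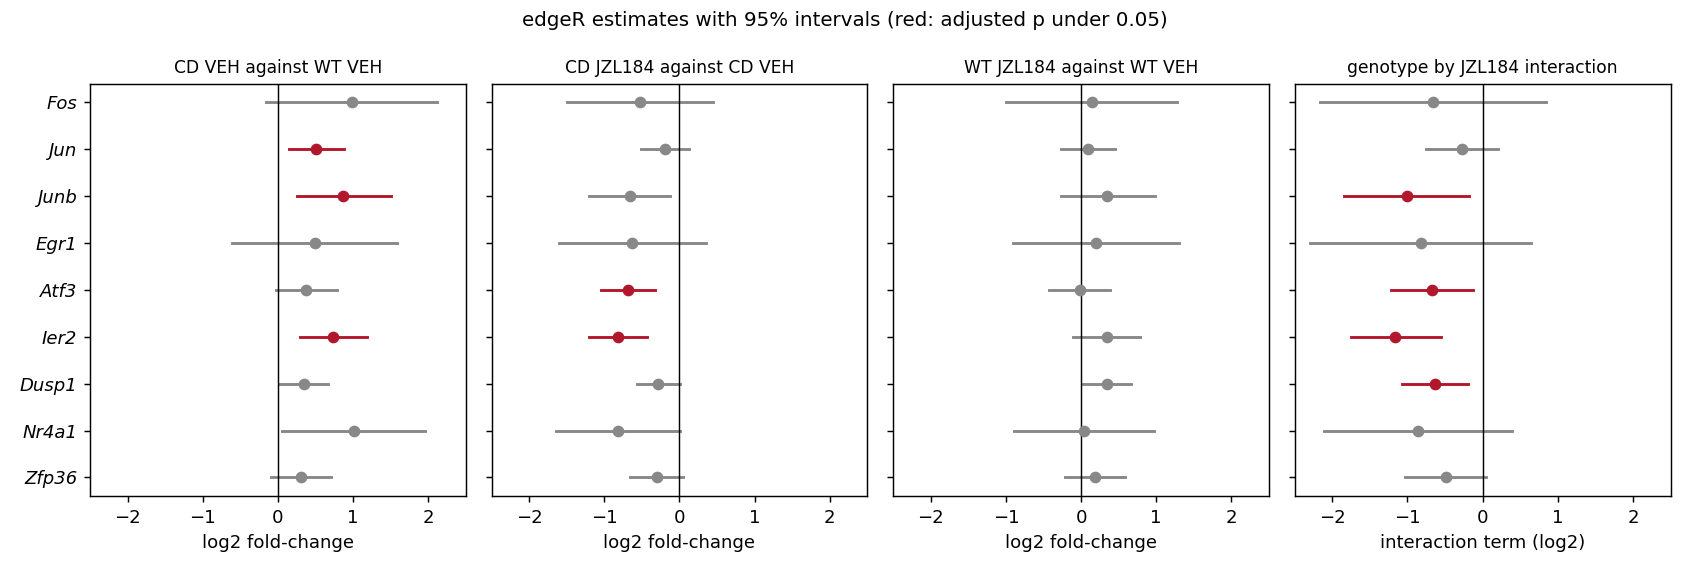
Estimates of edgeR (points) with 95% intervals (bars) for the 9 tested genes (y axis) in 3 comparisons and for the interaction (x axis, log2 scale). Red marks an adjusted p under 0.05, which 3 genes passed between the vehicle groups, 2 for JZL184 in CD mice, none for JZL184 in WT mice and 4 in the interaction.

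The difference between both JZL184 effects was tested as the interaction of genotype and treatment, and 4 of the 9 genes passed, all with a lower effect in CD mice, as did 26.2% of tested genes in that direction. The term was -1.16 ± 0.27 for Ier2 (adjusted p = 0.00447), -0.63 ± 0.20 for Dusp1 (adjusted p = 0.0210), -0.67 ± 0.25 for Atf3 (adjusted p = 0.0406) and -1.01 ± 0.38 for Junb (adjusted p = 0.0418). In DESeq2 the term of Junb did not pass (adjusted p = 0.0561), and the other 3 did. For Ier2 it was negative and passed with each mouse left out, at an adjusted p of at most 0.0265. For Dusp1 it passed in 10 of 11 such runs, failing without WT VEH mouse D (estimates from -0.73 to -0.43), and for Atf3 and Junb in 4 each. Terms of the other 5 genes were -0.86 for Nr4a1, -0.82 for Egr1, -0.66 for Fos, -0.49 for Zfp36 and -0.28 for Jun, with adjusted p between 0.109 and 0.438. This contrast uses all 4 groups, including both WT VEH mice.

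The spread between mice of a group was large for these genes. The SD of log2 CPM within groups, pooled over the 4 groups, was 0.74 for Egr1, 0.72 for Fos and 0.59 for Nr4a1, at the 99.8th, 99.8th and 99.6th percentile of all tested genes. It was 0.39 for Junb, 0.28 for Ier2, 0.25 for Zfp36, 0.24 for Atf3, 0.22 for Jun and 0.20 for Dusp1, the lowest of them at the 89.2nd percentile. The median over the 9 genes was 0.28, beside 0.10 over all tested genes. Fos had between 217 and 1189 counts per mouse and Nr4a1 between 1009 and 5379.

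Which mice were high was shared between genes. CD VEH mouse A had the highest level of the 11 mice for 7 of the 9 tested genes and was among the 3 highest for all 9, and CD VEH mouse E was among the 3 highest for 8. WT JZL184 mouse B was highest for Dusp1 and Zfp36 and among the 3 highest for 5. The mean standardised level over the 9 genes was 1.66 SD in CD VEH mouse A, 0.84 in CD VEH mouse E and 0.76 in WT JZL184 mouse B. At the other end were WT VEH mouse D at -1.06, CD JZL184 mouse A at -0.82 and WT JZL184 mouse A at -0.72. CD VEH mouse C was at 0.05, close to WT VEH mouse C at -0.08.

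Over the 11 mice, the Pearson r of log2 CPM between pairs of these genes had a median of 0.68 (36 pairs, from 0.07 to 0.91), and Spearman's rho a median of 0.60. For deviations from the group means, which leave out the differences between groups, the median r was 0.59, from -0.27 for Atf3 and Zfp36 to 0.95 for Junb and Ier2. Over all pairs of tested genes both medians were 0.00. Positive and negative pairs cancel in such a median, so it does not show how rare a high r is. The points share libraries, scaling and depth, so these are descriptions. Fos, Junb, Egr1, Ier2, Dusp1 and Zfp36 varied together within groups, with r of 0.68 to 0.95 in their 15 pairs, a set singled out after its values were seen. Nr4a1 joined them at 0.41 to 0.75. Jun and Atf3 did not, with r from -0.27 to 0.42 in their 15 pairs and a median of 0.13. Without CD VEH mouse A the median r fell to 0.48 on both scales.

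**Figure D4:**
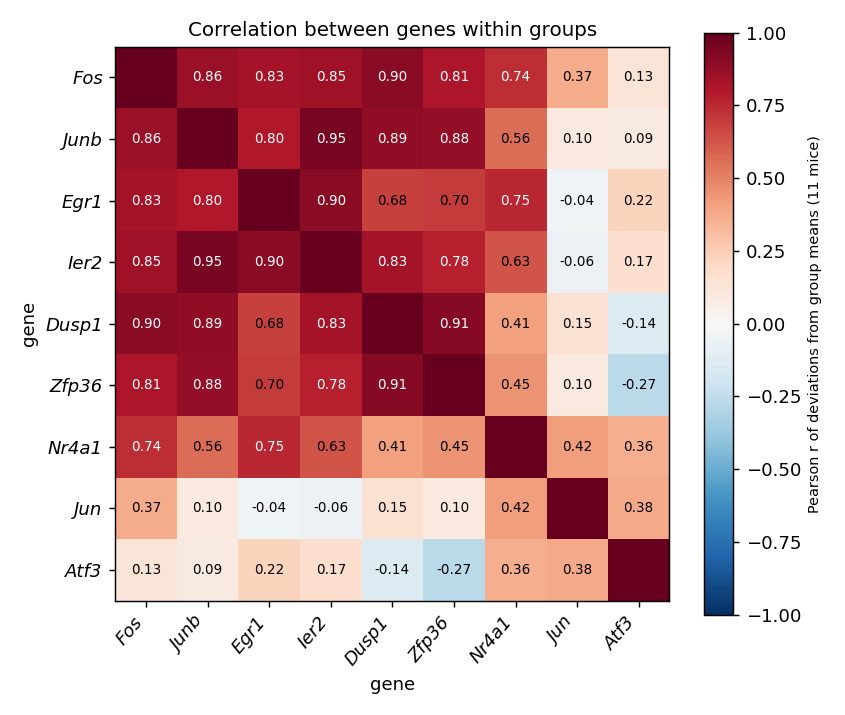
Pearson r between the 9 tested genes (both axes) over 11 mice, computed on deviations of log2 CPM from the group means. The first 6 genes have r of 0.68 to 0.95 with each other, whereas Jun and Atf3 have r of at most 0.42 with any gene.

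Among 7572 other genes with a mean of at least 10 CPM, the gene most like the mean standardised level of the 9 genes over the 11 mice was Btg2, an antiproliferative gene that is itself an immediate early gene (Pearson r = 0.957, Spearman rho = 0.90). Scd1, a fatty acid desaturase, came next (r = 0.944, rho = 0.95), and then Rftn1, S100a6, Eif1, S100a13, Actg1, Fam50a, Elf2 and Cdk4, with r between 0.875 and 0.897. For deviations from the group means, the closest were Leprot (r = 0.970) and Dcn, which encodes the matrix proteoglycan decorin and is on the fibroblast list (r = 0.954). They were followed by Rps21, Rpl38, Poglut1, Rpl3, Sdf4, Gnai3, Tm9sf1 and Rps13 at r of 0.919 to 0.945. No gene was on both lists, and the 4 genes of ribosomal proteins (Rps21, Rpl38, Rpl3 and Rps13) appeared only on the second.

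A further list of 40 immediate early genes, such as the KLF, polo-like kinase and MAF genes, was described beside the 10. All 40 were in the table and 32 were tested. In CD VEH against WT VEH, 8 rose and 3 fell (15.0% and 15.4% of all tested genes), with a median of 0.28. Ier5l (0.79, adjusted p = 0.0160), Btg2 (0.65, adjusted p = 0.0491), Plk3 (0.59, adjusted p = 0.0204), Klf2 (0.58, adjusted p = 0.00942) and Plk2 (0.56, adjusted p = 0.00529) were higher. Btg2 did not pass in DESeq2 (adjusted p = 0.0636). Nfil3, a basic leucine zipper repressor, was lower at -1.13 (adjusted p = 0.0285), as were Trib1 and Ccn1, both at -0.51 and named after their values were seen.

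In CD JZL184 against CD VEH, 12 of the 32 fell and none rose (17.0% and 16.8% of all tested genes), with a median of -0.33. The largest falls among those called were Cebpd (-0.87, adjusted p = 0.0295), Maff (-0.69, adjusted p = 0.00446), Btg2 (-0.68, adjusted p = 0.0238), Plk3 (-0.67, adjusted p = 0.00627), Klf4 (-0.63, adjusted p = 0.00226) and Gem (-0.58, adjusted p = 0.0154). With JZL184 in WT mice, 5 rose (15.4% of all tested genes were called higher) and Trib1 fell by 0.37 (adjusted p = 0.0141). Plk2 rose by 0.73 (adjusted p = 0.00225) and Zfp36l2, a relative of Zfp36, by 0.59 (adjusted p = 0.00788).

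Between mice given JZL184, 12 of the 32 were lower in CD and Sik1, named after its value was seen, was higher (0.44, adjusted p = 0.0311), where 20.1% of tested genes were called lower. Maff (-0.64, adjusted p = 0.00424), Plk2 (-0.58, adjusted p = 0.00144) and Ccn2 (-0.53, adjusted p = 0.00644) were among those lower. Against WT VEH, none of the 32 was called in CD JZL184 mice, where 0.186% of all tested genes were, with a median of -0.12. The interaction passed for 14 with a negative term and for Trib1 with a positive one (0.44, adjusted p = 0.0125), also named after its value was seen, as it did for 26.2% and 25.3% of all tested genes in these directions.

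Genes of the signalling chain itself were called in both directions, as were genes at large. Of 19 upstream kinases and factors, 2 rose and 5 fell in CD VEH relative to WT VEH (15.0% and 15.4% of all tested genes), where Mapk3, which encodes the kinase ERK1, was higher at 0.63 (adjusted p = 0.00455). Elk3, a partner of SRF, was higher at 0.54 (adjusted p = 0.00730). With JZL184 in CD mice, 7 rose and 2 fell (16.8% and 17.0% of all tested genes), with Mapk3 at -0.34 (adjusted p = 0.0259), Elk3 at -0.40 (adjusted p = 0.0119) and Map2k4 at 0.26 (adjusted p = 0.00565). With JZL184 in WT mice, 2 rose and 5 fell (15.4% and 14% of all tested genes), led by Elk3 (0.63, adjusted p = 0.00422) and Mapk3 (0.60, adjusted p = 0.00533). Of 10 dual-specificity phosphatases other than Dusp1, 7 were tested. In CD VEH relative to WT VEH, Dusp5 (0.71, adjusted p = 0.0177) and Dusp6 rose, and Dusp8 (-0.50, adjusted p = 0.0337) and Dusp16 (-0.44, adjusted p = 0.0424) fell. Dusp6, the phosphatase of ERK, was called in 4 comparisons and in the interaction (-1.14, adjusted p = 0.00069). Between vehicle groups it was higher in CD by 0.44 (adjusted p = 0.0383) and between JZL184 groups it was -0.70 (adjusted p = 0.00211). With JZL184 it rose by 0.56 in WT mice (adjusted p = 0.0153) and was at -0.58 in CD mice (adjusted p = 0.00663). Of 15 delayed early targets, 9 were tested, and in CD VEH relative to WT VEH 2 rose and 1 fell, with a median of -0.16. Plaur, the urokinase receptor, rose by 0.84 in CD VEH (adjusted p = 0.00652), and Ccl2, a chemokine that attracts monocytes, by 1.03 (adjusted p = 0.0194), whereas Hbegf, a growth factor of the EGF family, fell by 0.47 (adjusted p = 0.0157). With JZL184 in CD mice 4 fell and none rose, with a median of -0.23, Mmp3 and Ccnd1 among them. Plaur and Ccl2 fell there too, Ccl2 by 1.19 (adjusted p = 0.00530) and Plaur by 0.94 (adjusted p = 0.00235).

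Lists of other acute responses were described in the same way. Of 9 glucocorticoid-responsive genes, Sgk1, a kinase that answers corticosteroids, was higher in CD VEH than in WT VEH at 0.44 (adjusted p = 0.0285) and fell by 0.90 with JZL184 in CD mice (adjusted p = 0.00201), where Zbtb16, a zinc finger repressor, rose by 0.40 (adjusted p = 0.0288). The median of the list was -0.01 in the first and -0.30 in the second comparison. Of 10 heat shock genes, 2 rose and 1 fell in the first comparison (15.0% and 15.4% of all tested genes) and 1 rose and 1 fell in the second (16.8% and 17.0%). Of 11 tested clock genes, none was called in 5 of the 6 tests. The share of all tested genes called in those 5 ran from 0.186% to 51.5%. Per2 alone was lower in CD JZL184 against WT JZL184 (-0.94, adjusted p = 0.0284), where 20.1% of all tested genes were lower.

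Markers of several cell types were called in the same comparisons as immediate early genes. Relative to WT VEH, in CD VEH 5 of 6 endothelial, 4 of 5 tested smooth muscle and pericyte, 6 of 7 macrophage and 2 of 7 fibroblast markers rose, and 2 of 7 cardiomyocyte markers fell, where 15.0% of all tested genes were called higher and 15.4% lower. With JZL184 in CD mice, 5 of 6, 3 of 5, 6 of 7 and 3 of 7 of the same lists fell, as did all 5 erythroid markers, and 4 of 7 cardiomyocyte markers rose and 1 fell (17.0% of all tested genes were lower and 16.8% higher). With JZL184 in WT mice, where no immediate early gene of the 10 was called, all 6 endothelial, 4 of 5 smooth muscle and pericyte, all 7 macrophage and 4 of 7 fibroblast markers rose, as did 15.4% of all tested genes. The cardiomyocyte markers Actn2, Myh6 and Ryr2 fell there, as did 14% of all tested genes. Between the JZL184 groups, all 6 endothelial, all 5 smooth muscle and pericyte, 6 of 7 macrophage and 4 of 7 fibroblast markers were lower in CD, and 4 of 7 cardiomyocyte markers were higher and 1 lower (20.1% of all tested genes were lower and 18.2% higher). In the interaction, all 6 endothelial, all 5 smooth muscle and pericyte, all 7 macrophage, 4 of 7 fibroblast and all 5 erythroid markers had a called negative term, as did 26.2% of all tested genes. A positive term was called for 4 of 7 cardiomyocyte markers, as for 25.3% of all tested genes, and a negative one for Myl2. In bulk tissue, fewer cells of a type and less RNA per cell cannot be told apart.

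Summed endothelial markers were at 519 and 521 CPM in WT VEH, 807 to 830 in WT JZL184, 668 to 759 in CD VEH and 507 to 588 in CD JZL184. Summed macrophage markers were at 236 and 252, 315 to 544, 315 to 415 and 208 to 246 CPM in the same order, and smooth muscle and pericyte markers at 578 and 584, 830 to 897, 791 to 912 and 562 to 576 CPM. The endothelial sum was higher in every WT JZL184 mouse than in any CD VEH mouse. The macrophage sums and the smooth muscle and pericyte sums of these groups overlapped. Fibroblast markers ran from 670 to 1120 CPM over the 11 mice, and neutrophil markers, which were too low to be tested, from 1.93 to 14.1 CPM. The neutrophil sum was highest in CD VEH mouse A (14.1), CD VEH mouse E (8.09) and WT JZL184 mouse B (7.15). It was lowest in CD JZL184 mouse A (1.93), WT VEH mouse D (2.12) and WT JZL184 mouse A (2.63). These are the same 3 highest and 3 lowest mice as for the mean standardised level of the immediate early genes. This match was picked out after the values were seen, and not every list shared it. The fibroblast sum was highest in WT JZL184 mouse B (1120), WT JZL184 mouse D (994) and CD VEH mouse E (990). Of the neutrophil markers, Ly6g, which defines these cells, was at 0 counts in 5 mice and at most at 0.0346 CPM in the others. No other marker was at 0 in any mouse apart from Sln. The part of neutrophils and of cell composition in the levels of immediate early genes was not tested.

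**Figure D5:**
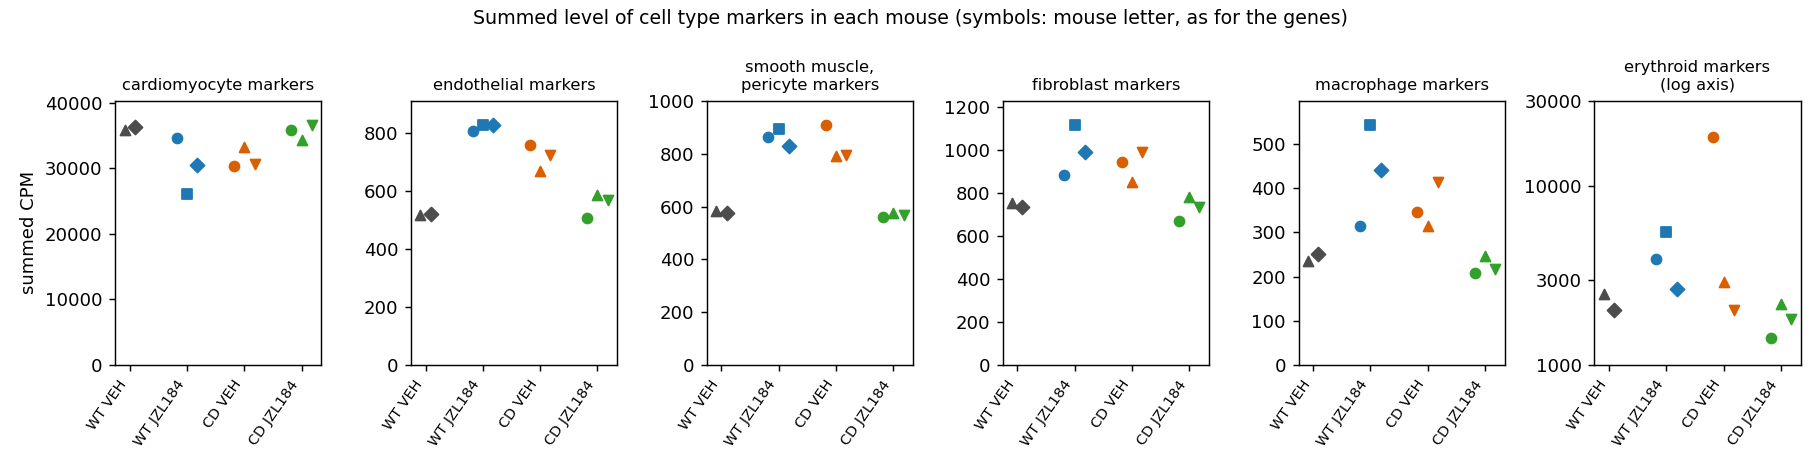
Summed CPM (y axis, from 0 except for the log axis of the erythroid panel) of 6 lists of cell type markers in each mouse, by group (x axis), with a symbol for each mouse letter. Endothelial, smooth muscle and pericyte and macrophage sums are higher in WT JZL184 and CD VEH than in WT VEH and CD JZL184 in every mouse, and the erythroid sum of CD VEH mouse A, 18800 CPM, stands apart.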

How the data were processed

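RNA of the hearts of 11 mice was sequenced on a HiSeq3000 instrument. The authors deposited estimated counts for every gene in each mouse, obtained with Salmon 0.7.2 (submitters' processing notes, build mm10) on the Ensembl annotation of GRCm38 and summed to genes by tximport. The values are not scaled to depth. Columns carry the group and a letter but no sample number, so groups came from titles and no pairing was used. The number of columns without a group was 0.

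Counts were rounded, filtered at an average log2 CPM of at least 1 and analysed with edgeR 4.0.16 (R 4.3.3, limma 3.58.1): TMM, 1 model over 4 groups, quasi-likelihood test, Benjamini-Hochberg adjustment over 11319 genes, threshold 0.05. SE is the estimate over the square root of F. Log2 CPM had a prior count of 2. GENCODE mouse release 21 matched 22238 of 22608 genes, and Cyr61, Ctgf, Mkl1 and Mkl2 were taken as Ccn1, Ccn2, Mrtfa and Mrtfb. P-values measure the spread between these samples.

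The members and lists were chosen with earlier results of these data known. By rule the text named all members, up to 6 called genes of each list and comparison (not all are described) and the 10 genes of most like pattern on each of 2 scales. Alternatives were DESeq2 1.42.0, RLE and upper quartile factors, no filter, a minimum of 10 counts per mouse, fits restricted to the compared groups, no mitochondrial genes, offsets for gene length and GC content, a threshold of 0.01 and omission of single mice. The scripts were tested on simulated data.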

Additional observations from a re-analysis of the deposited data

Results flagged for a closer look

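The effect of JZL184 differed between CD and WT mice, by the interaction term of the edgeR model, for 4 of the 9 tested immediate early genes. The term was -1.16 for Ier2, -1.01 for Junb, -0.67 for Atf3 and -0.63 for Dusp1 (log2 scale). In CD mice the estimates were -0.82, -0.66, -0.68 and -0.28, and in WT mice they were 0.34, 0.35, -0.01 and 0.35. Of the further immediate early genes, the largest such terms were those of Socs3 (-1.24), Ier5l (-1.20), Plk2 (-1.13), Maff (-1.10), Plk3 (-1.09) and Cebpd (-1.06), with adjusted p between 0.000199 and 0.0478. In DESeq2, the terms of Junb (adjusted p = 0.0561) and Cebpd (adjusted p = 0.0684) did not pass. With each mouse left out, Ier2 passed in 11 of 11 runs, Dusp1 in 10, and Atf3 and Junb in 4 each, and the offset for gene length left Ier2 and Dusp1. All 6 endothelial, all 5 smooth muscle and pericyte and all 7 macrophage markers tested also had a called negative term, and their part in these terms was not tested. Of all tested genes, 51.5% had an interaction term that passed in either direction. No single group could be searched for an outlying mouse, since each held 2 or 3.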

How the results depend on the processing

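No paired analysis was possible by the sample number of the labels, because the columns of the table carry no such number. They carry letters that recur between groups, whose meaning is not given, and no fit with the letter as a block was run. The number of genes called changed with several settings. Fits restricted to the compared groups gave 5 in place of 3 for CD VEH against WT VEH (Dusp1 and Zfp36 were added), 5 in place of 2 for CD JZL184 against CD VEH and 1 in place of 0 for CD JZL184 against WT JZL184. DESeq2 also called 1 in the last of these. The offset for gene length gave 0 for CD VEH against WT VEH and 2 in place of 4 for the interaction. At an adjusted p under 0.01 these became 0 and 1, and CD JZL184 against CD VEH 1. With each mouse left out, counts ran from 0 to 4 for CD VEH against WT VEH, from 2 to 4 for CD JZL184 against CD VEH, from 0 to 1 for WT JZL184 against WT VEH, from 0 to 2 for CD JZL184 against WT JZL184 and from 1 to 4 for the interaction. The cause was not tested. RLE factors, upper quartile factors, no filter, a minimum of 10 counts per mouse and no mitochondrial genes left these counts as they were, and the GC offset moved them by at most 1.

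Among the estimates recomputed under each setting, which for CD JZL184 against either WT group were those of few genes, signs turned for some that had not passed. In WT JZL184 against WT VEH, Atf3 became 0.03 with upper quartile factors and 0.01 in the restricted fit, and Nr4a1 0.00 with the length offset and -0.03 with the GC offset. With each mouse left out, the estimates there ran from -0.52 to 0.77 for Fos, -0.03 to 0.23 for Jun, -0.30 to 0.94 for Egr1, -0.21 to 0.12 for Atf3, -0.38 to 0.63 for Nr4a1 and -0.03 to 0.36 for Zfp36. Egr1 in CD VEH against WT VEH ran from -0.01 to 1.23, and the interaction of Fos from -1.29 to 0.00. The mice that turned a sign were WT JZL184 B and D and WT VEH C and D. Over all tested genes, the vehicle groups differed in 3440, beside 1152 at an adjusted p under 0.01, 1217 without WT VEH mouse D and 385 without WT VEH mouse C. CD JZL184 differed from WT VEH in 21, beside 105 with DESeq2 and 88 in the restricted fit, and 3332 differed between the WT groups, beside 1652 in the restricted fit, 558 without WT VEH mouse C, 1031 without WT VEH mouse D and 2093 without WT JZL184 mouse B. The vehicle groups differed in 1930 without CD VEH mouse A and 1976 without mouse E. For CD JZL184 against WT VEH, 21 became 13 without CD JZL184 mouse E. It became 33 without WT JZL184 mouse A and 32 without WT JZL184 mouse B. For JZL184 in CD mice, 3831 became 2038 to 2450 without CD VEH mouse A or E or CD JZL184 mouse A or E, so the shares of all tested genes called rest on single mice too. At 0.01 the other counts were 1103 in place of 3332 for JZL184 in WT mice, 1553 in place of 3831 in CD mice, 2229 in place of 4331 between JZL184 groups and 3883 in place of 5828 for the interaction. With 2 WT VEH mice, leaving out either assumes that the lone mouse varies like the other groups.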

Other observations

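With no filter on low counts, 19080 genes were tested and Fosb among them. Its estimate was 1.04 ± 0.39 between vehicle groups, CD minus WT (log2 scale ± SE, adjusted p in edgeR = 0.0806), -0.62 ± 0.32 in CD JZL184 against CD VEH (adjusted p = 0.214), 0.50 ± 0.40 with JZL184 in WT mice (adjusted p = 0.444) and -1.12 ± 0.51 for the interaction (adjusted p = 0.113). It was -0.08 ± 0.34 between the JZL184 groups (adjusted p = 0.912) and 0.42 ± 0.39 for CD JZL184 relative to WT VEH (adjusted p = 0.840). None passed.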
